A study of Mus musculus with 6 samples.

Results

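The alpha-arrestins are a family of 5 measured genes, *Arrdc1*, *Arrdc2*, *Arrdc3*, *Arrdc4* and *Txnip*, out of 12353 genes quantified in mouse gastrocnemius, a calf muscle made mostly of fast-twitch fibers. Members were taken by gene symbol from the family, and the family was picked with the measured difference between the genotypes in view, so the difference between genotypes is given as a description with no test. All 5 were in the table, and each was above an FPKM of 1 in all 6 libraries, so none entered through 1 group alone. *Arrdc5*, looked for here with the other arrestin-fold proteins, was not in the table. RNA sequencing compared muscles of 3 wild-type mice (Nogo+/+, WT) and 3 mice lacking Nogo (Nogo-/-, Nogo KO), the membrane protein of the endoplasmic reticulum that *Rtn4* encodes, with 1 library of polyadenylated RNA per mouse. All mice were kept on a 12 h light-dark cycle with free access to water, and the labels name no treatment. The loss of Nogo is not restricted to muscle in the labels, and the age, sex and strain of the sequenced mice, their feeding state and the hour of collection are not given in the sources used here. The libraries are called Samples 1 to 3 (Nogo+/+) and 4 to 6 (Nogo-/-).

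Alpha-arrestins are cytosolic adaptor proteins built on the same fold as the beta-arrestins that silence activated receptors. Most of them carry short proline-tyrosine motifs that recruit ubiquitin ligases of the NEDD4 family to membrane cargo, such as receptors and nutrient transporters, which are then internalized or sorted to lysosomes. TXNIP also binds and inhibits thioredoxin and restrains glucose uptake, ARRDC4 is its closest relative in glucose handling, ARRDC3 acts on beta-adrenergic receptors and on energy expenditure, and ARRDC1 drives the release of small vesicles from the plasma membrane.

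Depth of the libraries was similar across the groups, and *Rtn4* levels followed the genotype. Low FPKM values (fragment numbers scaled for transcript length and library depth) fell on steps of 1 fragment and gave about 13497000 to 14426000 fragments per Nogo+/+ library and 13765000 to 14459000 per Nogo-/- library. *Rtn4* was at 414 to 429 FPKM in the Nogo+/+ libraries and 0.312 to 0.423 FPKM in the Nogo-/- libraries. All 10 markers of fast and common skeletal fibers were present and none passed the threshold (limma adjusted p under 0.05). Of all genes 4.64% passed, 1.89% upward and 2.75% downward. Among markers of other cells, 5 of 6 endothelial genes fell, with a summed level of 111 to 122 FPKM in the Nogo+/+ and 77.5 to 93.8 FPKM in the Nogo-/- libraries, of which *Kdr* alone passed without each library in turn, and 2 of 6 smooth muscle and pericyte genes fell (231 to 238 against 168 to 211 FPKM). Of 8 adipocyte genes 1 rose (404 to 487 against 467 to 899 FPKM, highest in Sample 4). All 8 adipocyte differences were above 0, as were 47.9% of all genes. For 5 of them every Nogo-/- value lay above every Nogo+/+ value, as for 15.9% of all genes. Of 3 measured satellite cell genes 1, *Myod1*, fell (26.7 to 29.0 against 19.1 to 24.2 FPKM). The smooth muscle, adipocyte and satellite cell calls were each lost without at least 1 library. Pax7 and Myf5 were looked for and were not in the table, which holds genes that reached an FPKM of 1 in any of the libraries. None of the 6 macrophage, 5 fibroblast, 5 erythroid, 5 Schwann cell or 6 keratinocyte genes passed, with summed levels of 13.1 to 18.8 against 13.6 to 21.2, 397 to 423 against 343 to 520, 188 to 316 against 217 to 233, 170 to 221 against 174 to 223 and 2.93 to 11.8 against 3.88 to 175 FPKM. Sample 6 held the 175 FPKM of keratinocyte genes, while *Krt1*, *Krt5*, *Krt14* and *Krt17* were each at 0 in at least 1 Nogo+/+ library. The share of any of these cells in the alpha-arrestin values was not tested, and member differences are given with and without Sample 6.

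*Arrdc2* (ENSMUSG00000002910) lies on the minus strand of chr8:70835129-70839720 in GRCm38. Its level was 5.98, 8.86 and 8.72 FPKM in the Nogo+/+ muscles and 66.7, 34.1 and 102 FPKM in the Nogo-/- muscles. Every Nogo-/- value lay above every Nogo+/+ value, and the lowest Nogo-/- library, Sample 5, was still 3.85 times the highest Nogo+/+ library. Group means were 7.86 ± 1.62 and 67.7 ± 34.0 FPKM (SD, n = 3 each), a ratio of 8.61. On the log2(FPKM + 1) scale after quantile normalization the difference was 2.81 (SE 0.35), the 4th largest of the 5919 genes with a difference above 0. The difference was 2.43 without Sample 6 and 3.24 without Sample 5. *Arrdc2* was thus the member whose level differed most between the genotypes, and also the member that varied most within each.

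*Txnip* (ENSMUSG00000038393), which encodes the thioredoxin-interacting protein, lies on the plus strand of chr3:96557957-96561883. It was the most abundant alpha-arrestin in all 6 muscles, at 207, 243 and 245 FPKM in the Nogo+/+ libraries and 215, 124 and 193 FPKM in the Nogo-/- libraries. In the Nogo+/+ muscles it ranked 259th of all genes by mean level. The lowest value, in Sample 5, stood well below the other 5, and the groups overlapped because Sample 4 exceeded Sample 1. Means were 232 ± 21.4 and 177 ± 47.2 FPKM (SD, n = 3 each), and the log2 difference of -0.45 (SE 0.18) shrank to -0.21 without Sample 5 and was -0.55 without Sample 6. The summed endothelial, smooth muscle and satellite cell markers were lower in the same direction, and their part in the *Txnip* values was not tested. The endothelial and smooth muscle sums were lowest in Sample 6 (77.5 and 168 FPKM). The satellite cell sum was lowest in Sample 5 (19.1 FPKM), where *Txnip* was lowest. In these bulk samples, fewer cells of a type and less RNA per cell cannot be told apart. An antisense gene, Gm15441, overlaps *Txnip* in the annotation and is not analysed here. The library kit keeps strand, but whether the counting used it is not given in the sources used here.

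*Arrdc3* (ENSMUSG00000074794, plus strand of chr13:80883384-80896042) was at 8.20, 10.7 and 9.52 FPKM in the Nogo+/+ and 13.2, 10.5 and 17.0 FPKM in the Nogo-/- muscles. Samples 4 and 6 lay above all Nogo+/+ libraries, whereas Sample 5 fell just below Sample 2, so the groups overlapped. Means were 9.49 ± 1.27 and 13.6 ± 3.26 FPKM (SD, n = 3 each), a ratio of 1.43, with a log2 difference of 0.41 (SE 0.17) that was 0.23 without Sample 6 and 0.58 without Sample 5. *Arrdc3* also has an overlapping gene on the opposite strand, 1700023H06Rik, which is not analysed here.

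*Arrdc4* (ENSMUSG00000042659, minus strand of chr7:68736995-68749241), the relative of *Txnip*, was at 3.43, 3.55 and 3.68 FPKM in the Nogo+/+ and 4.50, 2.51 and 4.44 FPKM in the Nogo-/- muscles. The Nogo+/+ values were nearly equal, and the Nogo-/- values fell on both sides of them. The means were 3.55 ± 0.127 and 3.82 ± 1.13 FPKM (SD, n = 3 each), and the log2 difference of 0.02 (SE 0.17) ranged from -0.10 without Sample 6 to 0.24 without Sample 5.

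*Arrdc1* (ENSMUSG00000026972, minus strand of chr2:24925352-24935252), the vesicle-forming member, was at 4.76, 4.67 and 4.87 FPKM in the Nogo+/+ and 4.41, 4.77 and 5.70 FPKM in the Nogo-/- muscles. The groups overlapped, with Sample 6 above, Sample 4 below and Sample 5 inside the narrow Nogo+/+ range. The means were 4.77 ± 0.0977 and 4.96 ± 0.663 FPKM (SD, n = 3 each), and the log2 difference of 0.01 (SE 0.10) ranged from -0.10 without Sample 6 to 0.10 without Sample 4.

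**Figure D1:**
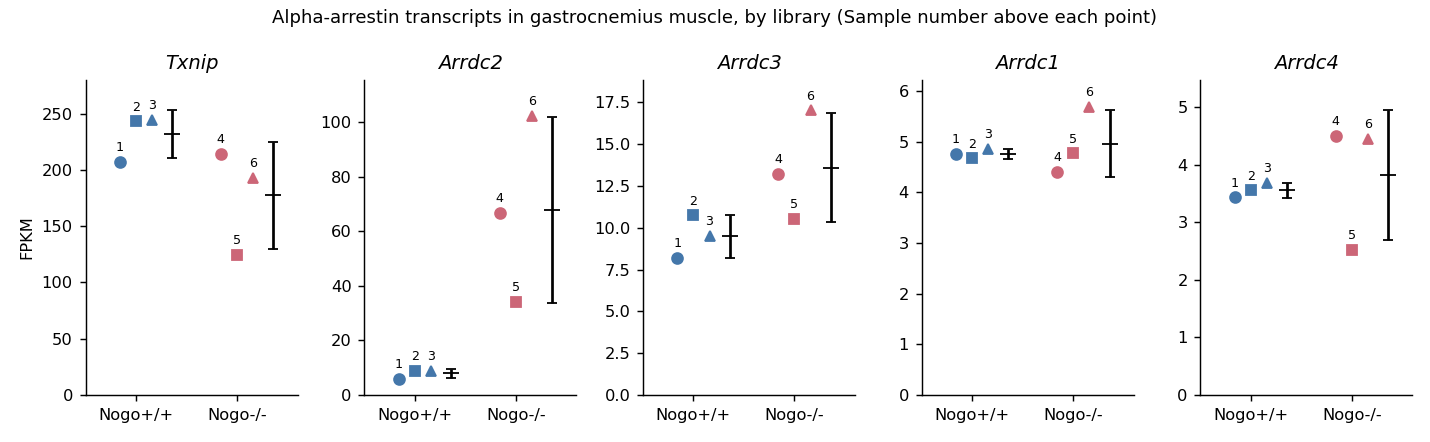
FPKM of the 5 alpha-arrestins in each of the 6 muscles (points, numbered by Sample; blue Nogo+/+, red Nogo-/-), with the group mean and SD (n = 3) as a black bar, each panel on its own linear axis from 0. Only *Arrdc2* separates the groups, with 5.98 to 8.86 FPKM against 34.1 to 102 FPKM, and Sample 5 is the lowest Nogo-/- muscle for all but *Arrdc1*.

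With a threshold of 0.05 on the limma adjusted p, *Arrdc2* was the 1 member of 5 past it, where 4.64% of all genes passed in either direction, 1.89% upward and 2.75% downward, and no member passed downward. *Arrdc2* was likewise the 1 member of 5 whose groups did not overlap, against 25.9% of all genes in either direction and 15.9% with the Nogo-/- values higher. Since the family was chosen on this contrast, nothing is read from these counts. Over all genes the median log2 difference was -0.01 and the median size of the difference 0.10, while the members' differences were 2.81 (*Arrdc2*), 0.41 (*Arrdc3*), 0.02 (*Arrdc4*), 0.01 (*Arrdc1*) and -0.45 (*Txnip*).

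The make-up of the family followed from these levels. FPKM are scaled for transcript length, so levels can be set beside each other within a library. In Nogo+/+ muscles *Txnip* was followed by *Arrdc3* and *Arrdc2*, whose values overlapped, and then by *Arrdc1* and *Arrdc4*, whose values did not. In Nogo-/- muscles *Arrdc2* stood in second place in every library, below all *Txnip* values and above all *Arrdc3* values, and *Arrdc1* and *Arrdc4* overlapped. *Txnip* made up 89.7% to 90.3% of the summed FPKM of the 5 genes in the Nogo+/+ libraries and 59.9% to 70.7% in the Nogo-/- libraries. The share of *Arrdc2* was 2.61% to 3.27% in the former and 19.4% to 31.7% in the latter, and that of *Arrdc3* 3.50% to 3.96% and 4.36% to 5.98%. *Arrdc1* (1.72% to 2.07% against 1.45% to 2.71%) and *Arrdc4* (1.31% to 1.49% against 1.38% to 1.48%) held small shares throughout.

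The summed level of the 5 genes was 229, 271 and 272 FPKM in the Nogo+/+ and 303, 176 and 323 FPKM in the Nogo-/- libraries, with means of 257 ± 24.2 and 267 ± 79.5 FPKM (SD, n = 3 each). The total thus overlapped between genotypes, with Sample 5 below and Samples 4 and 6 above the Nogo+/+ range. Without *Txnip* the sum was 22.4, 27.8 and 26.8 FPKM against 88.9, 51.9 and 129 FPKM, most of it *Arrdc2* in the Nogo-/- libraries.

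**Figure D2:**
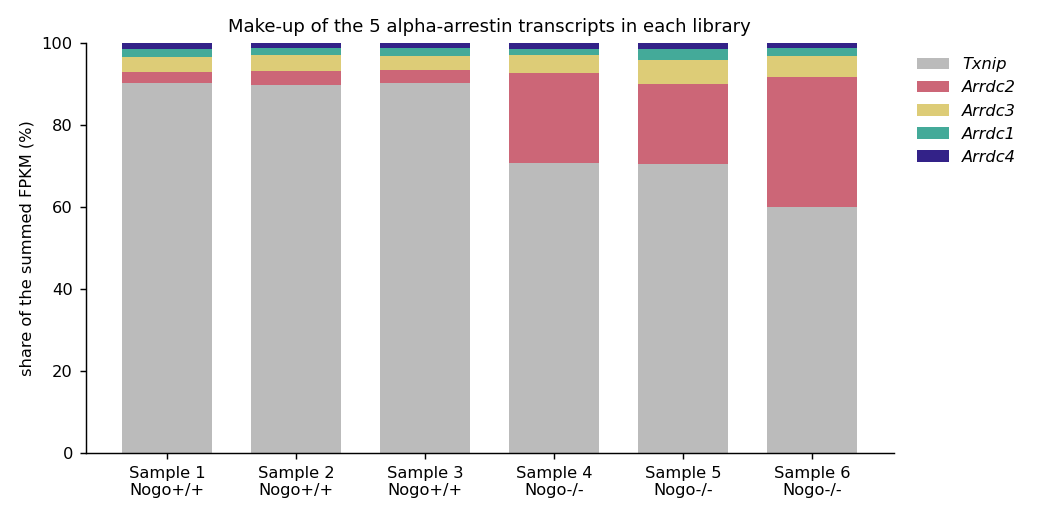
Share of each alpha-arrestin (%) in the summed FPKM of the 5 genes, stacked for each of the 6 libraries. *Txnip* (grey) takes 89.7% to 90.3% in Samples 1 to 3 and 59.9% to 70.7% in Samples 4 to 6, and *Arrdc2* (red) goes from at most 3.27% to at least 19.4%.

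Spread between mice was described as the SD of the log2 values within a group. It was set beside that of genes within 1 log2 unit of the same mean level over all 6 libraries. For *Arrdc2*, with group means of 3.15 (Nogo+/+) and 5.96 (Nogo-/-), that level lies more than 1 log2 unit from either group. Among the Nogo-/- mice the SD was 0.82 for *Arrdc2*, 0.41 for *Txnip*, 0.38 for *Arrdc4*, 0.35 for *Arrdc3* and 0.20 for *Arrdc1*, at percentiles 99.8, 99.4, 97.3, 97.8 and 83.2 of genes of like level. Among the Nogo+/+ mice the SD was 0.29 for *Arrdc2*, 0.19 for *Arrdc3* and 0.15 for *Txnip*, at percentiles 99.1, 92.6 and 96.9. These 3 members varied between mice more than most genes of like mean level over all 6 libraries in both genotypes. *Arrdc4* (SD 0.05) and *Arrdc1* (SD 0.02) were instead at percentiles 16.7 and 4.42 in the Nogo+/+ mice. The difference in spread between genotypes was not tested.

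The number of fragments limits the precision of each value. If all fragments came from the longest annotated transcript, *Txnip* rested on 5082 to 9991 fragments, *Arrdc2* on 195 to 3310, *Arrdc3* on 469 to 968, *Arrdc4* on 142 to 244 and *Arrdc1* on 102 to 131 per library. Counting error was then at least 1.00% to 1.40% for *Txnip* and 8.75% to 9.91% for *Arrdc1*, above the 2.05% coefficient of variation of *Arrdc1* between the 3 Nogo+/+ libraries. Between the Nogo-/- libraries that coefficient was 13.4% for *Arrdc1* and 29.6% for *Arrdc4*, whose counting error was at least 6.41% to 8.40%. Small differences in *Arrdc1* and *Arrdc4* could go unseen with this counting error and this spread between mice. The 3-fold range of *Arrdc2* among Nogo-/- mice (34.1 to 102 FPKM) was far wider than its counting error in those libraries, at least 1.74% to 2.93%.

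**Figure D3:**
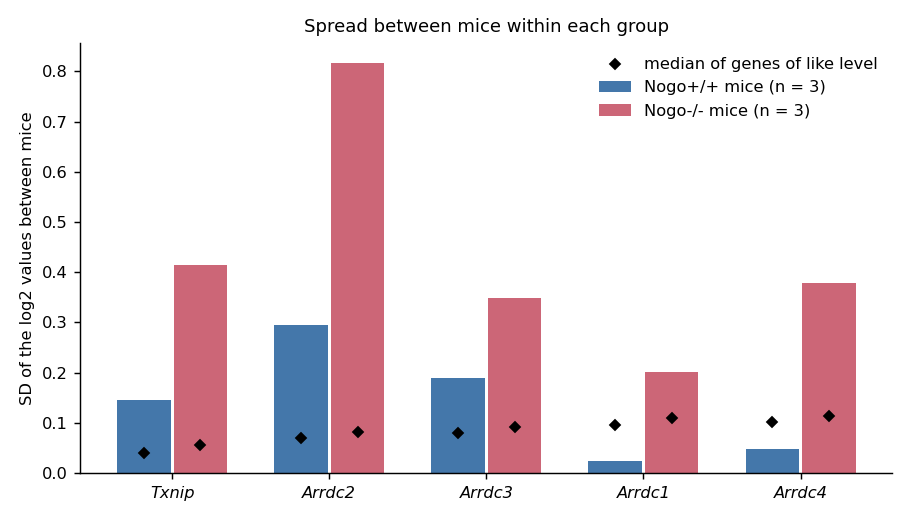
SD of the log2 values between the 3 mice of each group (bars; blue Nogo+/+, red Nogo-/-) for each alpha-arrestin, with the median SD of genes of like level (black diamonds). Level here is the mean over all 6 libraries. In the Nogo-/- mice all 5 bars exceed the median, from 0.20 for *Arrdc1* to 0.82 for *Arrdc2*, and in the Nogo+/+ mice those of *Arrdc1* and *Arrdc4* lie below it.

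The order of the Nogo-/- mice differed between members, but Sample 5 was the lowest of the 3 for 4 of the 5 members, all but *Arrdc1*, where Sample 5 was the lowest for 26.0% of all genes. Sample 6 was the highest for *Arrdc1*, *Arrdc2* and *Arrdc3*, where it was the highest for 21.3% of all genes, and Sample 4 for *Arrdc4* and *Txnip*. These counts were made after the values were seen, and the members share a library within each mouse, so they carry no test.

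Patterns across the 6 libraries were compared by the root mean square (RMS) difference of the log2 values, each gene centred on its own mean. Within the family the pair most alike was *Arrdc1* and *Arrdc4* (0.21), followed by *Arrdc3* and *Arrdc4* (0.24) and by *Arrdc4* and *Txnip* (0.25), and the pair least alike was *Arrdc2* and *Txnip* (1.66). Genes that vary little lie close to each other on this measure whatever their shape.

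Among 11435 genes compared, the one nearest to *Arrdc2* was *Per1*, a component of the circadian clock (RMS 0.32), at 2.09, 2.02 and 1.92 FPKM in the Nogo+/+ and 30.5, 18.3 and 35.6 FPKM in the Nogo-/- libraries. *Ddit4*, an inhibitor of mTORC1 (RMS 0.35), was at 4.25, 5.94 and 6.07 FPKM against 41.5, 12.4 and 79.5 FPKM. *Slc25a25*, a mitochondrial carrier of ATP-Mg and phosphate (RMS 0.37), was at 5.75, 6.25 and 8.60 FPKM against 54.7, 14.7 and 84.4 FPKM. All 3 were lowest in Sample 5 and highest in Sample 6 among the Nogo-/- mice, as *Arrdc2* was, which their choice by likeness favors. *Gadd45g*, a growth arrest and DNA damage gene (RMS 0.48), ranged from 30.4 to 51.0 FPKM against 126 to 220 FPKM, and *Ciart*, a repressor in the clock (RMS 0.52), from 0.335 to 1.05 FPKM against 14.1 to 19.8 FPKM.

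The genes nearest to *Txnip* were *Kcnf1*, a potassium channel subunit (RMS 0.08), *Bcl6b*, a transcriptional repressor (RMS 0.10), *Trp53i11* (RMS 0.10), *Tspan14*, a tetraspanin (RMS 0.11), and *Tnfaip2* (RMS 0.11). *Kcnf1* was at 2.43, 3.43 and 3.37 FPKM in the Nogo+/+ and 2.45, 1.18 and 2.09 FPKM in the Nogo-/- libraries, and *Bcl6b* at 3.80, 4.79 and 5.12 FPKM against 4.43, 2.56 and 3.80 FPKM. All 5 had their lowest value in Sample 5, as *Txnip* did, which their choice by likeness to *Txnip* favors. Likeness over 6 libraries of 2 groups is a description, and all genes compared share the same libraries.

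**Figure D4:**
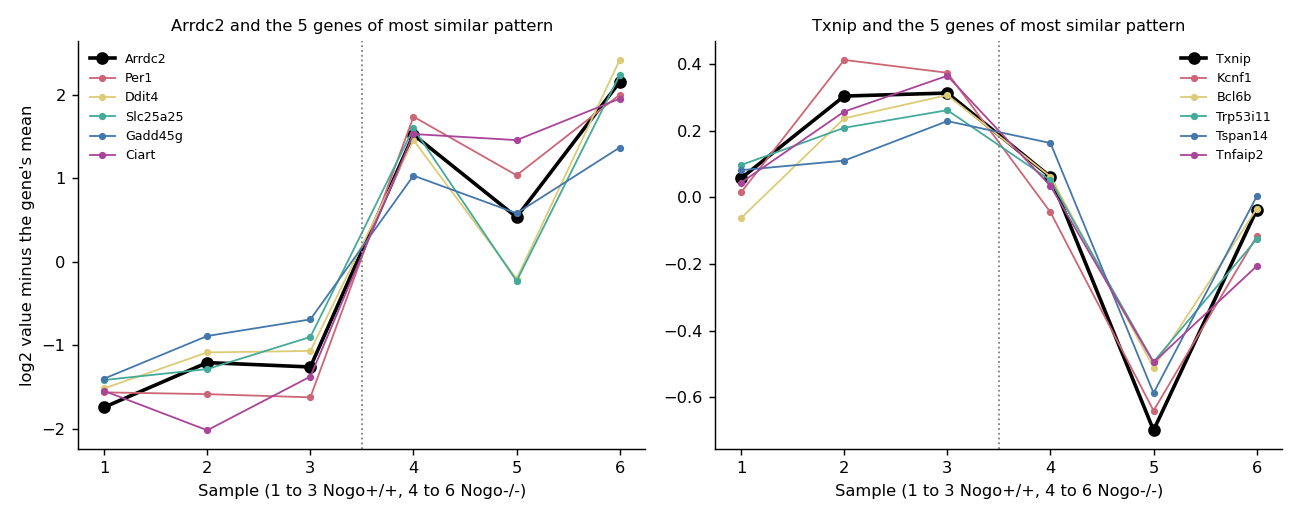
Log2 value minus the gene's own mean in each library, for *Arrdc2* (left, black) and *Txnip* (right, black) and the 5 genes with the most similar pattern (colours), with a dotted line between Nogo+/+ and Nogo-/- libraries. The left panel steps up at Sample 4 and dips at Sample 5, and the right panel is highest in the Nogo+/+ Samples 2 and 3 for most genes and lowest at Sample 5.

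Promoter sequence was read for each member from 250 bases before to 50 bases after the annotated transcript start (RefSeq, GRCm38.p6). All 5 members matched, *Arrdc3* with 3 starts, among 32851 windows of 27025 genes. Stretches of the *Txnip*, *Arrdc4* and *Arrdc2* windows are shown because these are the most abundant member, its closest relative and the member whose level differed most. They run 5′ to 3′ on the gene's strand, from chr3:96557707-96557946 (plus), chr7:68749249-68749488 (minus) and chr8:70839731-70839970 (minus), and capitals mark the fixed letters of the motif matches listed after them.
Txnip: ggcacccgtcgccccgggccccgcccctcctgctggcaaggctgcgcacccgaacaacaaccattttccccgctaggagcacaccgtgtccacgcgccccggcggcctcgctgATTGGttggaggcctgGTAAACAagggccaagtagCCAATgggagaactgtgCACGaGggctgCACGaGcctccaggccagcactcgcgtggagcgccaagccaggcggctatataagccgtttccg
Arrdc4: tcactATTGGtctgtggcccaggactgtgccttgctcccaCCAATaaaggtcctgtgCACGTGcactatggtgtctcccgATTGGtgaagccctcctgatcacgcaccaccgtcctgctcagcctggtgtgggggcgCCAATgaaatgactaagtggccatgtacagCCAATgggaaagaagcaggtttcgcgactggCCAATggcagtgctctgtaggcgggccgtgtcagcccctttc
Arrdc2: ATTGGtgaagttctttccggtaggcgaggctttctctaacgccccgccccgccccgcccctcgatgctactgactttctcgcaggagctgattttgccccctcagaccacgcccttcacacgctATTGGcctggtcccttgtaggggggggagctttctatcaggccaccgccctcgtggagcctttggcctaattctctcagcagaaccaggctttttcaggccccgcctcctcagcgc

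In *Txnip* the 17 letters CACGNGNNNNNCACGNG, the form of a carbohydrate response element bound by the Mondo family of glucose-sensing factors, matched from 85 to 69 bases before the start, with a gap left in lower case. That match is present in 16 of the 32851 windows (0.0487%). The forkhead letters GTAAACA matched from 121 to 115 bases before the start of *Txnip* (3.65% of windows). *Arrdc4* had the E-box letters CACGTG from 193 to 188 bases before its start (7.15% of windows), which can also form part of the carbohydrate element. The shorter letters CACG occur in all the printed stretches, that of *Arrdc2* included, and their share of all windows was not counted.

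The CCAAT box, which reads ATTGG where it lies on the other strand, was found in 4 of the 5 members, and in 37.4% of all windows. *Arrdc4* had 6 matches, *Arrdc2* had 3, of which the one from 7 to 3 bases before the start lies outside the printed stretch, *Txnip* had 2, and *Arrdc3* had 1 at each of 2 starts. The letters TGACG, a half-site of cAMP-responsive elements, matched at 1 start of *Arrdc3* (20.8% of windows). No member matched the palindromic glucocorticoid element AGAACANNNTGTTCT (0.00913% of windows), its half-site AGAACA (19.0%), the D-box TTANGTAA (2.32%) or AGGTCA (16.3%), the half-site bound by ROR and REV-ERB factors, and *Arrdc1* matched none of the 9 motifs. Both strands were searched. A match describes letters and not binding, and no match says only that these letters are not in this window. The members' windows held 59% to 73% G and C, above the median of 52.7% over all windows.

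**Figure D5:**
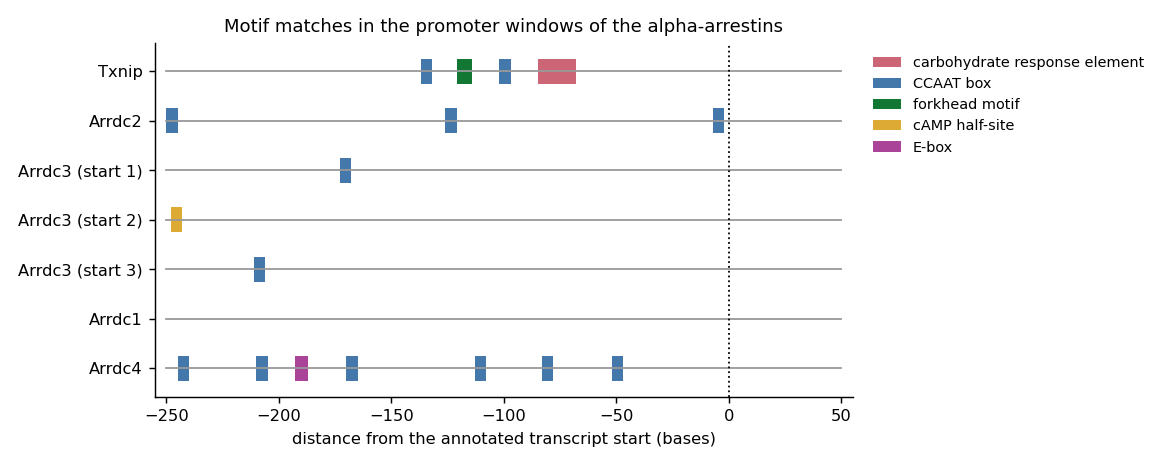
Motif matches on either strand (coloured boxes) in the promoter windows of the 5 alpha-arrestins, by distance in bases from the annotated transcript start (dotted line), with 3 starts for *Arrdc3*. *Txnip* alone matches the letters searched for a carbohydrate response element, *Arrdc4* has 6 CCAAT matches and an E-box match, and *Arrdc1* has no match.

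The genes that alpha-arrestins work with were counted in the same limma fit, adjusted over all 12353 genes, beside the 4.64% of all genes that passed and the 20.5% at an unadjusted p under 0.05. The p-values set the difference between the groups against the spread between mice within a group, which limma moderates with values from all genes. Of 8 measured genes for other arrestin-fold proteins and their retromer partners none passed (1 at an unadjusted p under 0.05, median log2 difference -0.05). The most abundant of them, *Vps35*, was at 21.4 to 22.8 FPKM in the Nogo+/+ and 20.1 to 22.3 FPKM in the Nogo-/- libraries. Of 9 measured NEDD4-family ligases and adaptors 1 fell and none rose (3 at an unadjusted p under 0.05, median -0.09). The gene that fell was *Smurf2*, a ligase of TGF-beta signaling, at 6.89, 6.84 and 6.71 FPKM against 5.49, 5.53 and 5.59 FPKM, a log2 difference of -0.29 (SE 0.06, limma adjusted p = 0.040). The call on *Smurf2* did not pass without any one library (limma adjusted p = 0.068 to 0.151) or without quantile normalization (limma adjusted p = 0.062), although its groups did not overlap.

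Of the 19 thioredoxin and peroxiredoxin genes, the partners that TXNIP inhibits or that share their reducing power, none passed in limma, with 3 at an unadjusted p under 0.05 (20.5% of all genes). The median log2 difference was 0.06, and 17 of the 19 were above 0, as were 47.9% of all genes. For 10 of the 19 every Nogo-/- FPKM lay above every Nogo+/+ FPKM, which held for 15.9% of all genes. Among these 10, *Txn1*, the cytosolic thioredoxin, was at 45.6 to 50.6 against 51.4 to 54.9 FPKM and *Srxn1*, which reactivates oxidized peroxiredoxins, at 12.6 to 13.6 against 15.8 to 16.9 FPKM. The summed level of the list was 1074 to 1122 FPKM in the Nogo+/+ and 1147 to 1188 FPKM in the Nogo-/- libraries. The most abundant, the mitochondrial *Txn2*, was at 179, 179 and 184 FPKM against 189, 187 and 183 FPKM, so its groups overlapped. Of 16 identifiers of the ESCRT machinery, which ARRDC1 recruits for vesicle release, none passed (1 at an unadjusted p under 0.05, median -0.01), and *Chmp4b* was at 89.6 to 95.8 FPKM against 92.4 to 95.4 FPKM.

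Of 14 genes for glucose transporters, hexokinases and Mondo factors 1 rose and none fell (median -0.12). At an unadjusted p under 0.05 there were 6, against 20.5% of all genes. The Mondo factor *Mlxip* was at 19.8 to 21.7 FPKM in the Nogo+/+ and 16.4 to 18.6 FPKM in the Nogo-/- libraries (limma adjusted p = 0.098). The groups of *Mlxipl* and of *Mlx* overlapped. *Hk2*, the hexokinase of insulin-sensitive muscle, was at 93.2, 82.3 and 90.0 FPKM in the Nogo+/+ and 127, 141 and 124 FPKM in the Nogo-/- libraries, a log2 difference of 0.52 (SE 0.06, limma adjusted p = 0.003), and passed without each library in turn. The 2 groups of *Hk2* values did not overlap.

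Of 15 genes of the glucocorticoid receptor and its targets 8 rose and none fell (median 0.59). The list was chosen with results on these mice known and so is no independent evidence of its direction. The 8 were *Per1*, *Cebpd*, *Mt1*, *Tsc22d3*, *Klf9*, *Klf15*, *Mt2* and *Ddit4*. At an unadjusted p under 0.05 there were 12 (20.5% of all genes), and the log2 difference was above 0 for 12 and below 0 for 3. *Zbtb16* was lower in Nogo-/-, at 12.0 to 12.9 against 5.79 to 10.6 FPKM (log2 difference -0.73, limma adjusted p = 0.0507). *Zbtb16* passed with a pseudocount of 0.1 (limma adjusted p = 0.0466), with a mean FPKM of at least 1 (limma adjusted p = 0.0480) and in 1 of 6 fits without a library. The calls on *Per1*, *Cebpd*, *Mt1* and *Tsc22d3* passed without each library in turn, that on *Klf9* in 5 of these 6 fits, those on *Klf15* and *Mt2* in 2 and that on *Ddit4* in 1. Without a mean-variance trend *Mt2* (limma adjusted p = 0.053) and *Ddit4* (limma adjusted p = 0.091) did not pass. *Per1* differed by 3.18 (SE 0.21, limma adjusted p = 1.62e-04) and *Cebpd*, a transcription factor, by 1.40 (SE 0.12, limma adjusted p = 5.10e-04). *Mt1*, a metallothionein, differed by 0.96 (SE 0.13, limma adjusted p = 0.005) and *Tsc22d3*, the glucocorticoid-induced leucine zipper, by 0.88 (SE 0.13, limma adjusted p = 0.008). The number that passed was 5 without Sample 2 and 4 without Sample 3. Sample 5 was the lowest Nogo-/- library for 10 of the 15 genes and the highest for 5. Over all genes it was the lowest for 26.0% and the highest for 37.0%. This order was read after the values were seen and carries no test.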

How the data were processed

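mRNA of gastrocnemius muscles was sequenced as stranded libraries on an Illumina HiSeq (Nogo+/+ and Nogo-/-, n = 3 each). As the paper's methods and the notes of the submitters state, the authors used CASAVA 1.8.2, cutadapt 1.4.2, STAR 2.6.1, GRCm38.p6 and Cufflinks 2.2.1, and deposited the FPKM of genes that reached 1 in any of the libraries. Columns named Sample 1 to 6 were assigned to a genotype, without replicate number, from the study's own description of its columns, and *Rtn4* levels followed that assignment. A further 6 columns hold normalized log2 values of the authors and were not used.

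FPKM were quantile normalized here over 12353 genes and fitted as log2(FPKM + 1) with limma 3.58.1 (lmFit, eBayes with trend, Benjamini-Hochberg, threshold 0.05) in R 4.3.3, a procedure tested on simulated data. FPKM are not counts, so no count test was run. Gene models came from GENCODE M21 (12347 identifiers matched) and promoters from RefSeq. Depth was inferred from FPKM steps of single-transcript genes, with 95.4% to 96.5% of low values within 0.1 of a whole fragment.

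The members and lists were chosen with earlier results of these data known. Named genes were the 5 members, *Rtn4*, up to 4 passing genes with the smallest p per list or else the most abundant, and the 5 genes nearest in pattern to *Arrdc2* and to *Txnip*, without predicted genes and pseudogenes. Other list or marker genes were named after their values were seen. A gene that the rule takes in is not reported here but stays in the counts. The fit was repeated with 0.1 as pseudocount, on genes averaging an FPKM of 1 or more, without quantile normalization, without the trend, and leaving out each library in turn.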

Additional observations from a re-analysis of the deposited data

How the results depend on the processing

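No paired analysis was possible because the columns carry no replicate number. Leaving out each library in turn gave log2 differences of 2.43 to 3.24 for *Arrdc2*, 0.23 to 0.58 for *Arrdc3*, -0.10 to 0.24 for *Arrdc4*, -0.10 to 0.10 for *Arrdc1* and -0.59 to -0.21 for *Txnip*, so the sign was not fixed for *Arrdc1* and *Arrdc4*. Of all genes, 573 passed (233 higher and 340 lower in Nogo-/-), against 302 higher and 234 lower without quantile normalization, which moved the median of all genes to 0.03. Without each library in turn, 188 to 434 genes passed, with 301, 188, 192 and 378 without Samples 1, 2, 3 and 4. Over the related lists together 11 genes passed, and 6 to 13 without each library in turn (7 without Sample 2 and 6 without Sample 3), among them 4 to 11 of the glucocorticoid list. The 1 call among NEDD4-family genes went to 0 without quantile normalization and to 0 to 0 without each library. In the thioredoxin list 1 gene passed with a mean FPKM of at least 1, 2 without quantile normalization and 1 without a trend, all of them *Srxn1* or *Txnrd3*. In the list that holds the receptor kinases 2 genes passed with a pseudocount of 0.1, with a mean FPKM of at least 1 and without a trend, where *Grk5* was added (limma adjusted p = 0.0502 as reported, 0.0424 to 0.156 under the alternatives). The causes of these changes were not tested. Because the members were chosen on this contrast, none carries a test, and 3 mice per group limit the precision of each difference.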
